A study of Gallus gallus with 6 samples.

Results

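The collagens are the chains that build the fibrils, networks and filaments of the extracellular matrix. Their genes were picked here by symbol: every probe set with a single gene symbol of the form COL, digits, A, digits was taken, and for each gene the probe set with the highest mean over the 6 arrays stands for it. This gave 41 of the 13009 genes with a single symbol, measured by 121 of 38439 probe sets (an Affymetrix probe set is a group of short probes read as 1 value). A name such as COL4A3BP, a kinase and lipid carrier that shares the letters, lacks the pattern and is not a member. Of the 41 genes, 39 passed a filter on low values (above the median of all values pooled, 44.1, on at least 1 array), and COL25A1 and COL7A1 did not.

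The 6 chicken arrays hold total RNA from adipose tissue (1 array), from liver (1 array) and from material labelled only as mix (mixes 1 to 4, 1 array each). All came from male birds of the Arbor Acres breed, 49 days (7 weeks) old and fed a corn and soybean diet, from which 21 tissues were taken. The study's question was which genes are prominent in fat and in liver. The labels name neither the contents of a mix nor the birds behind an array, so a p-value measures only the spread between these arrays, and the mixes may differ in tissue as well as in bird.

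As background, collagen chains wind around each other into a stiff helix, are trimmed and crosslinked outside the cell, and then assemble by type. Types I, III and V form the banded fibrils of most connective tissue, types II, IX, X and XI belong to cartilage, type IV makes the sheet under epithelia and around fat cells and muscle fibres, and type VI makes beaded filaments that link cells to fibrils. In adipose tissue each adipocyte sits in a basement membrane surrounded by type VI filaments, and in a healthy liver collagen is sparse, lying mostly around portal tracts and along the sinusoids. Since these are bulk samples, fewer cells of a type and less RNA per cell cannot be told apart.

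The values are MAS5 signals, a linear brightness. Differences are on the scale of log2(signal + 13.3), where the added constant is the lower quartile of the pooled signals, so a signal near or under 13 carries little information and differences of faint genes are understated. The arrays were not at a common level: median signals were 44.8 to 58.1 on adipose and the mixes and 27 on liver, and over all 25958 probe sets tested the median difference from the mixes was 0.08 for adipose and −0.75 for liver. Where the family is summed up, liver differences are therefore also given relative to −0.75. The highest signal on any array lay between 15513 and 18291. The labels of the lone arrays matched their markers: summed adipocyte marker signal (8 genes) was 66303 on adipose and 3506 to 9300.6 elsewhere, and summed hepatocyte marker signal (9 genes) was 98579 on liver and 203.3 to 9895.2 elsewhere.

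The cartilage, fibrillar and beaded filament classes each had a main array, and the network and fibril-associated classes did not. All 6 cartilage collagens and 6 of 7 fibrillar collagens were brightest on mix 3, and 5 of 6 genes of the beaded filament group were brightest on adipose. With the values as deposited, no collagen was brightest on liver. Under quantile scaling COL4A4 and COL26A1 were, and under trimmed-mean scaling COL13A1 and COL26A1 were. The 8 network collagens were split evenly, 2 each, over adipose and mixes 2, 3 and 4. Over the family, 18 of 39 genes (46.2%) were brightest on mix 3, where 14.6% of all probe sets tested were. The others were brightest on adipose (11 genes, against 25.9% of all probe sets), mix 1 (4 genes, against 19.0%), mix 2 (3 genes, against 6.75%) and mix 4 (3 genes, against 28.2%), and 0 were brightest on liver (against 5.53%). By at least 4-fold over every other array, 6 genes (15.4%) stood out on mix 3, against 0.412% of all probe sets: COL2A1, COL9A1, COL9A2, COL9A3, COL11A1 and COL16A1. Under quantile scaling the number was 10. The same rule picked COL28A1 on adipose (background 0.948%) and COL17A1 on mix 1 (background 1.23%), and 0 collagens on liver (0.913%), mix 2 (0.539%) or mix 4 (2.8%).

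**Figure D1:**
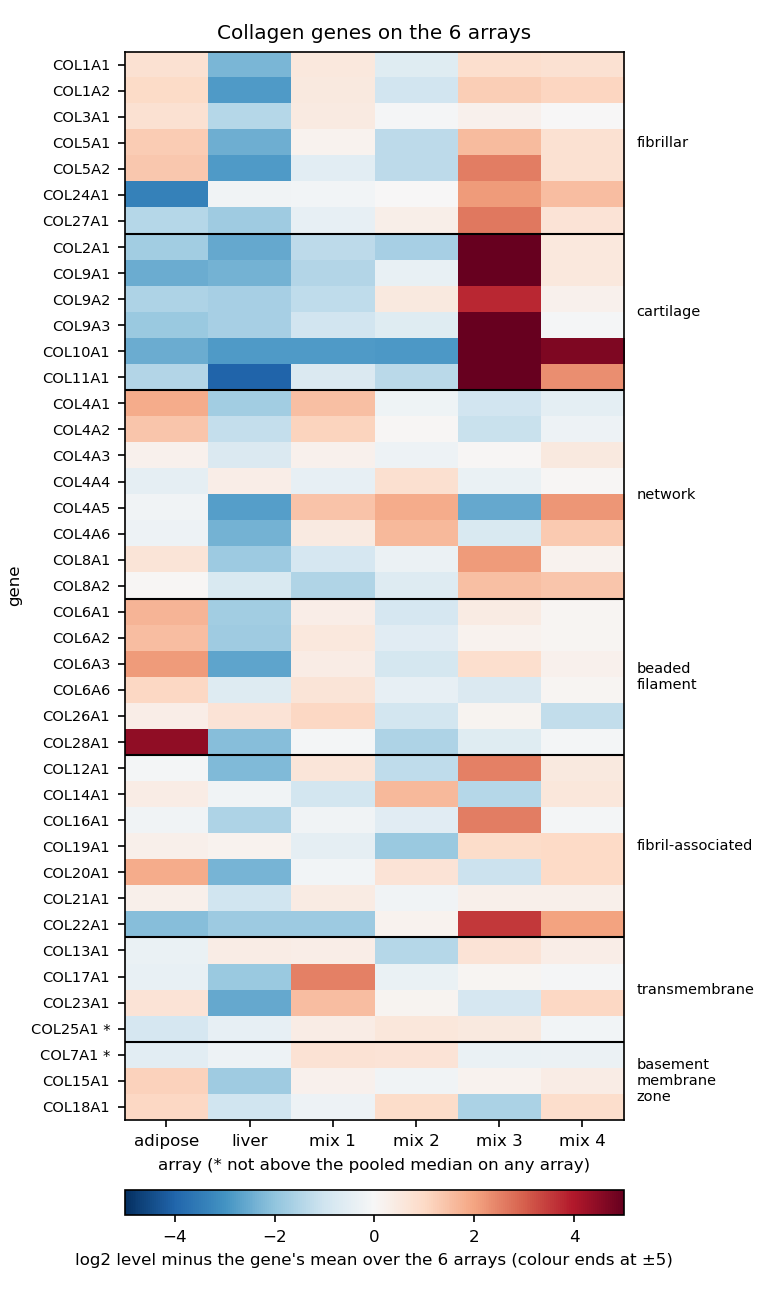
Each row is a collagen gene and each column an array; colour gives the gene's log2 level on that array minus its mean over the 6 arrays, with red above and blue below and the colour scale ending at 5 either way. The 6 cartilage collagens are red on mix 3, COL28A1 is red on adipose, and the liver column is blue for most genes; COL25A1 and COL7A1, marked with an asterisk, did not pass the filter.

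The fibrillar collagens give tissue its tensile strength. COL1A1 and COL1A2 encode the alpha-1 and alpha-2 chains of type I, the main collagen of skin, bone and tendon. COL1A1 had a signal of 14318 on adipose, 1730 on liver, and 12136, 5491.4, 14888 and 14147 on mixes 1 to 4. COL1A2 had 12757 on adipose, 905.6 on liver, and 9296.9, 3391.7, 15513 and 13738 on mixes 1 to 4. For both genes adipose lay inside the range of the mixes, liver lay below every other array, and mix 2 was the faintest mix. Mix 3 was brightest, but for COL1A1 mix 4 took its place under quantile and spike-in scaling. Against the mixes COL1A1 differed by 0.39 (SE 0.58) on adipose and by −2.64 (SE 0.58) on liver, and COL1A2 by 0.49 (SE 0.84) and −3.30 (SE 0.84).

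COL3A1, the chain of type III that is abundant in stretchable organs and vessel walls, was the fibrillar collagen brightest on adipose. Its signals were 14243 on adipose, 3149.4 on liver, and 11626, 8148.4, 9658.7 and 8612.7 on mixes 1 to 4. Adipose stood above all 4 mixes by a small margin and liver below them. Its 4 mixes lay close together (SD 0.23 on the log2 scale). Over the probe set used for each gene, this gave the smallest adjusted p of any collagen on liver. The difference was −1.58 (SE 0.26) with a limma adjusted p of 0.137, past no threshold.

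COL5A1 and COL5A2 make type V, which sits inside type I fibrils and limits their width. COL5A1 had 5326.5 on adipose, 392 on liver, and 2514.2, 872.1, 6640.3 and 3719.6 on mixes 1 to 4. COL5A2 had 2220 on adipose, 110.5 on liver, and 599.4, 340.9, 5178.3 and 1490.7 on mixes 1 to 4. In both, mix 3 was brightest with adipose next, and mix 2 was the faintest mix. The adipose difference was 0.97 for each (SE 1.04 and 1.42), smaller than its error, and the liver difference was −2.75 and −3.20. A fainter tested probe set of COL5A2 was brightest on adipose instead, at 1230.6 against 1088.3 on mix 3, with a difference from the mixes of 1.69.

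The other fibrillar collagens had a different shape. COL24A1 and COL27A1, known from mouse and human work in developing bone and in cartilage, had their lowest values on the lone arrays. COL24A1 had 8.7 on adipose, 187 on liver, and 189.5, 213.3, 984.2 and 646.1 on mixes 1 to 4. COL27A1 had 61.6 on adipose, 46.2 on liver, and 139.7, 234, 1239.7 and 310.8 on mixes 1 to 4. Both were brightest on mix 3 with mix 4 next, and both lay below all 4 mixes on adipose and on liver, though COL24A1 on liver entered the range of the mixes under quantile, trimmed-mean and spike-in scaling. COL24A1 stood 4.24 lower on adipose than the mixes on the log2 scale (SE 0.99, limma adjusted p = 0.365). It was also the only collagen at least 4-fold higher on liver than on adipose (log2 adipose minus liver −3.19).

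The cartilage collagens were faint outside mixes 3 and 4, with signals of at most 139. COL2A1, the chain of type II and the main fibril collagen of cartilage, had 25.6 on adipose, 8.7 on liver, and 39, 27.6, 13541 and 174.4 on mixes 1 to 4. COL11A1, whose type XI chains sit within type II fibrils, had 78 on adipose, 2.2 on liver, and 139, 84.3, 9539 and 1238.4 on mixes 1 to 4. Mix 3 exceeded the next array, mix 4, by 6.17 for COL2A1 and 2.93 for COL11A1 on the log2 scale.

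The 3 chains of type IX, which coats the surface of type II fibrils, followed the same shape. COL9A1 had 13.4 on adipose, 15.2 on liver, and 40, 99.2, 10407 and 201.5 on mixes 1 to 4. COL9A2 had 8.2, 6.7, 12.7, 75.5, 849.4 and 59.2, and COL9A3 had 28.1, 33.8, 63.4, 84.1, 5313.7 and 130.9, in the same array order. The margin of mix 3 was 5.60, 3.28 and 5.21 on the log2 scale, with mix 4 next for COL9A1 and COL9A3 and mix 2 next for COL9A2.

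COL10A1, which encodes type X and marks the swollen chondrocytes of the growth plate, differed from the rest of its class in the size of its mix 4 signal. It had 5.1 on adipose, 1.3 on liver, and 1.3, 0.9, 8520.6 and 2606 on mixes 1 to 4. Mix 3 stood only 1.70 above mix 4 on the log2 scale, while the other 4 arrays were near 0. The remaining gene of type XI in mammals, COL11A2, has no probe set with that single symbol here.

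With most of the signal on 1 of the 4 mixes, the differences of the class had wide errors. On adipose they ran from −3.83 (COL10A1) to −2.35 (COL9A2), with SEs of 1.79 to 4.01 and a median of −2.82, and on liver from −5.39 (COL11A1) to −2.45 (COL9A2) with a median of −3.60. Without mix 3 the median moved to −1.45 on adipose and to −1.84 on liver, and COL2A1 on adipose moved from −2.80 to −0.92. Adipose and liver each lay below all 4 mixes for 5 of the 6 genes, COL10A1 being the exception, where 15.7% and 60.5% of all probe sets did. Several of these signals were near or under 13: COL9A2 had 8.2 on adipose and 6.7 on liver against 12.7 on mix 1. On the other tested probe set of COL9A1 and on most others of COL2A1, adipose and liver both lay within the mixes. The exception was a faint probe set of COL2A1 with 4.8 on adipose, below mixes at 14.2 to 56.4. That probe set also lacks the mix 3 peak, with 56.4 on mix 2 and 49.1 on mix 3.

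Markers of cartilage and of bone moved with these values. All 12 cartilage markers tested were brightest on mix 3 (14.6% of all probe sets were), 8 of them by at least 4-fold (0.412%). Their summed signal was 34273 on mix 3, 298.3 on liver and 1013.2 to 4251.6 on the other arrays. MATN1, a cartilage matrix protein, was 5647.5 on mix 3 and 9.5 to 24.8 elsewhere, and LECT1, a chondrocyte growth factor (chondromodulin), was 9153 on mix 3 and 2.4 to 67.2 elsewhere. COMP, a cartilage and tendon protein, was an exception with 3870.9 on adipose and 3667 on mix 1, which is most of the list's sum on those arrays. Of the 10 bone and tendon markers 8 were brightest on mix 3, with mix 4 next in 7, and their summed signal was 29300 on mix 3, 14852 on mix 4, 5752.5 on mix 2 and 475.3 to 887.2 elsewhere. IBSP, a bone sialoprotein, was 4071.2 on mix 3 and 1803.6 on mix 4, and 2.6 to 12.9 elsewhere, a shape like that of COL10A1. The part of either tissue in the collagen values was not tested.

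Among all 18 collagens brightest on mix 3, mix 4 came next in 11, adipose in 4 (COL1A1, COL5A1, COL5A2 and COL8A1), and liver, mix 1 and mix 2 in 1 each. COL22A1, which in mouse and human lies at junctions such as that of muscle with tendon, belonged to those followed by mix 4. Its signals were 3 on adipose, 6.7 on liver, and 6.9, 66.5, 809 and 267.6 on mixes 1 to 4. Adipose stood below all mixes at −3.09 (SE 1.93), and liver at −2.80, inside the range of the mixes under the other scalings.

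Type IV collagen is the scaffold of basement membranes. Its common chains, COL4A1 and COL4A2, were brightest on adipose. COL4A1 had 4542.7 on adipose, 362.2 on liver, and 3482.2, 1066.7, 628.6 and 884.7 on mixes 1 to 4. COL4A2 had 6709.4 on adipose, 1101 on liver, and 5583.2, 2653.9, 1160.9 and 2144.2 on mixes 1 to 4. Mix 1 came close to adipose in both, and the faintest mix was mix 3, on which the cartilage collagens were brightest. The adipose difference was 1.91 (SE 0.92, limma adjusted p = 0.778) for COL4A1 and 1.44 (SE 0.80, limma adjusted p = 0.842) for COL4A2. COL4A2 on liver, below all mixes as deposited, entered their range under quantile, trimmed-mean and spike-in scaling.

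Among the cell type markers, the 9 endothelial genes were all above the 4 mixes on adipose (26.9% of all probe sets were), with a summed signal of 17043 there and 2187.7 to 3768.3 elsewhere, and smooth muscle markers summed to 41219 on mix 1 and 1155 to 7159 elsewhere. Their part in the type IV values was not tested.

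The other type IV chains belong to specialised membranes. COL4A5 and COL4A6, found together in human smooth muscle and epithelial membranes, were bright on mixes 1, 2 and 4. COL4A5 had 76.4 on adipose, 1.7 on liver, and 253.1, 351, 3.6 and 443.8 on mixes 1 to 4. COL4A6 had 65.6 on adipose, 4.7 on liver, and 112.6, 276.6, 41.1 and 218.4 on mixes 1 to 4. Both were lowest on liver and, among the mixes, on mix 3, and both lay within the mixes on adipose. The 3 tested probe sets of COL4A5 disagree on mix 3: another was also low there (14.1), but the faintest was brightest there, at 86.8 against 51.7 to 65.9 on the other mixes. The liver difference was −3.46 for COL4A5 (SE 1.85) and −3.02 for COL4A6 (SE 0.95).

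COL4A3 and COL4A4, the partner chains of the kidney filter, were faint on every array. COL4A3 lay between 12.3 and 45.3 and was brightest on mix 4, while COL4A4 lay between 24.1 and 76.1 and was brightest on mix 2. A kidney list, labelled glomerulus but drawn up from glomerulus and tubule genes, had its highest summed signal on mix 2 as well. That sum was 8738.3, with 543.9 to 5701.1 on the other arrays. Only 2 of its 5 tested genes were brightest on mix 2, and COL4A3, at 22.1, was faintest there among the mixes. COL4A4 counts as below all mixes on adipose, but at 24.1 it was level with mix 1 at 24.6. Under quantile scaling it lay within the mixes on adipose, and its brightest array was liver instead of mix 2.

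Type VIII forms a hexagonal net in vessel walls and in the cornea. COL8A1 had 764.4 on adipose, 125.8 on liver, and 259.9, 394.9, 2138.3 and 547.6 on mixes 1 to 4. COL8A2 had 52.8 on adipose, 23.6 on liver, and 8.8, 27.5, 165.4 and 150.1 on mixes 1 to 4. Both were brightest on mix 3, but COL8A2 was nearly as bright on mix 4, and under spike-in scaling mix 4 was the brighter.

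Type VI filaments surround adipocytes and muscle fibres. All 3 of its common chains were brightest on adipose. COL6A1 had 8446.4 on adipose, 758.2 on liver, and 3232.8, 1436.9, 3399.7 and 2753.7 on mixes 1 to 4. COL6A2 had 9189.9, 909.7, 4509.2, 2150.4, 3526.5 and 3378.6, and COL6A3 had 9425.5, 338.8, 2761, 1158.7, 3859.1 and 2509.9, in the same order. On the probe sets used, adipose stood above every mix and liver below every mix in each of the 3 genes. Of all probe sets tested, 26.9% exceeded the 4 mixes on adipose and 60.5% were under them on liver. All 3 tested probe sets of COL6A1 gave the same order. The other tested probe set of COL6A2 gave the reverse, at 79.2 on adipose, 1111.5 on liver and 81.7 to 1070.9 on the mixes. With the mean of its probe sets, the COL6A2 differences changed sign.

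Against the mixes the 3 chains stood higher on adipose by 1.71 (SE 0.53), 1.48 (SE 0.43) and 1.99 (SE 0.65) on the log2 scale. The limma adjusted p was 0.512, 0.470 and 0.555, so none passed. On liver they stood lower by −1.74, −1.83 and −2.75, and between adipose and liver the gap was 3.45, 3.32 and 4.74. COL6A6, a chain that in mammals can take the place of the alpha-3 chain, was faint (89.4 on adipose, 16.8 to 64.5 elsewhere) and also brightest on adipose.

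COL28A1 had the widest difference between adipose and the mixes of all collagens. It encodes type XXVIII, which shares von Willebrand factor A domains with type VI and in mouse lies around the glial cells of peripheral nerve. Its signals were 2516.5 on adipose, 13.6 on liver, and 96.9, 26.6, 63.8 and 96.5 on mixes 1 to 4. Adipose stood apart from every other array, by 4.52 over mix 1, the next in order, on the log2 scale.

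The difference from the mixes was 5.02 (SE 0.66), with a limma adjusted p of 0.221, the smallest on adipose over the probe set used for each collagen. With values floored at the pooled median in place of the added constant it was 5.13 with a limma adjusted p of 0.0406; over all alternatives that p ran from 0.0406 to 0.627. All 3 of its probe sets were brightest on adipose: the next in mean signal had 721.5 there and at most 13.7 elsewhere, and the faintest 225 and at most 28.1. Summed neuron and glia marker signal was 527.9 on adipose, 96.9 to 310.4 on liver and mixes 1 to 3, and 19672 on mix 4, where COL28A1 was at 96.5. The part of such cells in the COL28A1 values was not tested.

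COL26A1, known from reproductive tissue in mouse, stayed between 5.6 and 77.2 and was brightest on mix 1. Under quantile and trimmed-mean scaling it was brightest on liver instead, above all 4 mixes.

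The fibril-associated collagens sit on fibrils without forming their own. COL12A1, a bridging collagen of tendon and of tissue under load, had 841.7 on adipose, 185.5 on liver, and 1366.3, 363.3, 5313.3 and 1256.7 on mixes 1 to 4. COL16A1 had 93.1 on adipose, 27.6 on liver, and 92.7, 68.8, 689.6 and 99.2 on mixes 1 to 4. Both were brightest on mix 3, by 1.95 and 2.64 over the next array on the log2 scale, and lowest on liver at −2.78 (SE 1.31) and −1.99 (SE 1.22). COL16A1 is listed under 2 gene identifiers, and that of the probe set used here has no entry in the RefSeq gene table. Its other tested probe set lacks the mix 3 peak, with 80.8 on mix 2, 69.7 on mix 3 and 67.6 on adipose, and has the opposite sign on adipose (0.44 against −0.61).

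COL20A1, described in chick embryo tissues including tendon and cornea, was the member of this class that stood highest on adipose. It had 570.3 on adipose, 18.5 on liver, and 132.7, 242.9, 62.7 and 302.9 on mixes 1 to 4. Adipose lay above all mixes (1.75, SE 0.83, limma adjusted p = 0.771) and liver below them (−2.44). Adipose exceeded liver by 4.20 on the log2 scale.

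COL14A1, COL19A1 and COL21A1 varied less or lay lower. COL14A1, a fibril-binding collagen of skin and tendon, ran from 54.8 (mix 3) to 551.2 (mix 2) with adipose and liver inside that range. Its faintest tested probe set was brightest on adipose instead, at 58.2 against at most 4.6 elsewhere, with a difference from the mixes of 2.14. On its other tested probe sets adipose lay within the mixes. COL19A1 ran from 2.6 to 100, with mixes 3 and 4 nearly equal. COL21A1 was flat at 81.4 to 127.6 apart from liver at 40.5, below all mixes by −1.17 (SE 0.39).

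Of the transmembrane collagens, COL17A1, which anchors keratinocytes to the basement membrane in hemidesmosomes, stood out on mix 1. It had 60.3 on adipose, 12.9 on liver, and 522.3, 61.5, 86.5 and 77.8 on mixes 1 to 4. Mix 1 exceeded mix 3, the next, by 2.42 on the log2 scale, and liver lay below all mixes at −2.40 (SE 1.13). Adipose, at 60.3, lay just under mix 2, at 61.5, and so below all mixes. Summed keratinocyte marker signal was also highest on mix 1, at 1960.4 against 232.4 to 774.1 elsewhere. Only 2 of the 6 genes tested were brightest there, with 2 on adipose and 1 each on mixes 2 and 4. The list's median log2 level was 6.52 on mix 1 and 6.73 on mix 2. Its part in the COL17A1 value was not tested.

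COL23A1, a shed surface collagen, had 144.5 on adipose, 3.3 on liver, and 271.4, 94, 42 and 187.9 on mixes 1 to 4. Only liver stood outside the mixes, at −3.03 (SE 0.92). COL13A1, which in mouse helps form the nerve to muscle contact, ran from 223.3 (mix 2) to 996.8 (mix 3) with both lone arrays inside, though under trimmed-mean scaling liver lay above all mixes. COL25A1, a membrane collagen of neurons in mammals, reached only 28.7.

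The basement membrane zone collagens carry long sugar chains or anchor the membrane below. COL15A1, found around vessels, fat cells and muscle fibres in mammals, had 120.9 on adipose, 4.6 on liver, and 57.2, 40.9, 55.7 and 65.7 on mixes 1 to 4. COL18A1, the parent of endostatin, had 2760.6 on adipose, 661.5 on liver, and 1136.3, 2575.9, 437.6 and 2507.1 on mixes 1 to 4. COL15A1 stood above the mixes on adipose (0.99, SE 0.42) and below them on liver (−1.92), with mixes that lay close together. COL18A1 was about level on adipose, mix 2 and mix 4, and under quantile, trimmed-mean and spike-in scaling mix 2 passed adipose. COL7A1, the anchoring fibril collagen of skin, stayed between 8.6 and 38.8 and was not tested.

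Set against the mixes as a group, the collagens of adipose lay on both sides. Of 39 genes, 11 (28.2%) lay above all 4 mixes, where 26.9% of all probe sets tested did, and 10 (25.6%) lay below, where 15.7% did. The count above is near the background, and the count below was 5 with signals floored at the pooled median. The median difference was 0.22 (22 genes higher, 17 lower) against 0.08 over all probe sets, and it lay between −0.03 and 0.28 under the alternatives, so its sign is not settled. By class the median was 1.60 for the beaded filament group, 1.01 for the basement membrane zone, 0.49 for fibrillar, 0.08 for fibril-associated, −0.01 for network, −0.30 for transmembrane and −2.82 for cartilage collagens. The medians of the network and fibril-associated classes change sign with the scaling. Single mixes also moved several of them: without mix 2 the fibrillar median was 0.07, the transmembrane −0.77 and the fibril-associated −0.22, without mix 1 the network median was −0.32 and the transmembrane −0.18, and without mix 4 the network median was 0.25 and the transmembrane −0.19. Without mix 3 the network median was 0.20. Limma called 0 collagens at an adjusted p of 0.05, and 0.0% of all probe sets in either direction, with 5 collagens (12.8%) and 1905 probe sets (7.34%) at an unadjusted p under 0.05.

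**Figure D2:**
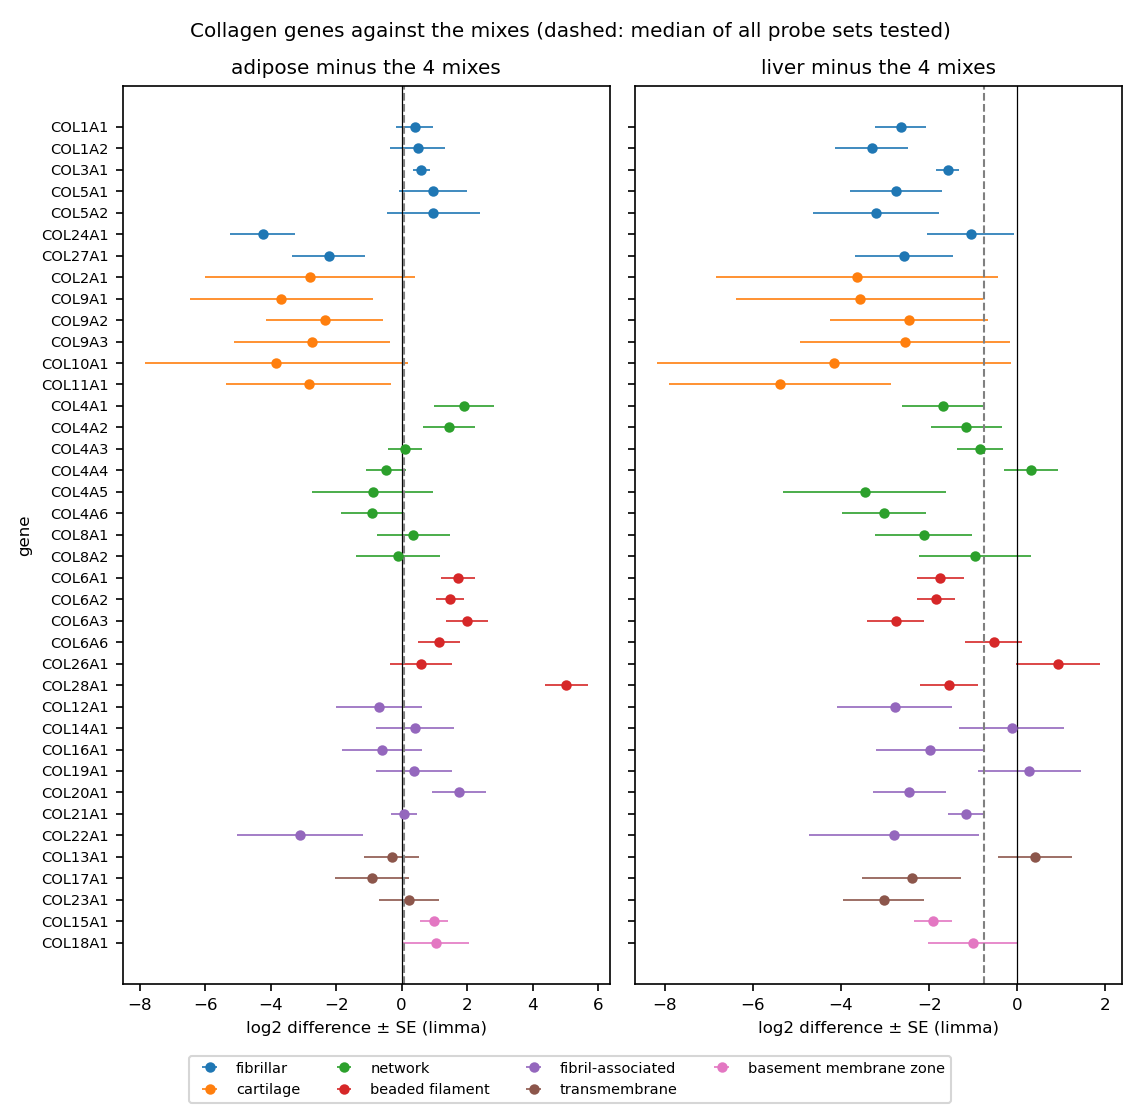
Each point is a collagen gene's log2 difference from the mean of the 4 mixes, on adipose (left) and on liver (right), with bars of 1 SE from limma and colours by class; the dashed line is the median of all 25958 probe sets tested. COL28A1 at 5.02 stands far to the right on adipose, the cartilage collagens have the widest bars, and on liver 35 of 39 points lie below 0.

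On liver, low collagen signal was the rule across classes. Of 39 genes, 30 (76.9%) lay below all 4 mixes, where 60.5% of all probe sets did on this dim array, and 0 lay above, where 6.78% did. The 30 genes below the mixes were all 7 fibrillar genes, 5 cartilage, 6 network, 4 beaded filament, 5 fibril-associated, 2 transmembrane and 1 basement membrane zone genes. Liver was the faintest of the 6 arrays for 26 genes (66.7%), against 58.1% of all probe sets. The median difference was −2.12 (4 genes higher, 35 lower), which is −1.38 relative to the median of all probe sets and between −1.52 and −0.93 under the alternatives. Limma called 0 collagens on liver, with 12 (30.8%) at an unadjusted p under 0.05, where 5148 of all probe sets (19.8%) were. Over all probe sets it called 0.0693% higher and 0.0% lower. With 4 mixes whose collagen levels spread widely (median SD 1.14 on the log2 scale, against 0.48 over all probe sets tested), the errors of these differences were large.

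Between the lone arrays there is no test, and only sizes can be given. These sizes include the level difference between the arrays. Over all probe sets tested, the median difference from the mixes was 0.08 on adipose and −0.75 on liver. The shares of all probe sets given here carry the same level difference. Adipose exceeded liver at least 4-fold for 20 of 39 collagens (51.3%), against 11.9% of all probe sets, and liver exceeded adipose for 1, COL24A1, against 2.72%. The widest gaps were those of COL28A1 (6.56), COL6A3 (4.74), COL20A1 (4.20), COL5A2 (4.17) and COL1A2 (3.80) on the log2 scale. With the pooled median added to each signal in place of 13.3, or with the mean over each gene's probe sets, the count was 13.

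Chains that assemble into the same molecule had levels that ran closely together over the arrays. For type I the Pearson correlation of log2 levels over the 6 arrays was 0.996, for type V 0.970, for COL4A1 with COL4A2 0.981, for the 3 pairs of type VI 0.979 to 0.990, and for the 3 pairs of type IX 0.965 to 0.993. A high correlation does not mean equal steps: COL9A1 and COL9A2, both peaking on mix 3, differed there by 2.37 on the log2 scale about their own means, the widest gap of the 13 pairs. COL11A1 with COL2A1, which meet in cartilage fibrils, gave 0.931. The median of the 13 pairs was 0.979, and that of the other 728 pairs of collagen genes was 0.341 (quartiles −0.0569 and 0.705). Those 728 pairs mix all classes, and pairs within a class were not set apart. The gap between the medians therefore does not separate partner chains from other chains of the same class. All pairs share the same 6 arrays, so the figures describe these arrays only.

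The exceptions were among the type IV chains and type VIII. COL4A3 and COL4A4 gave −0.605, both being faint on every array. COL4A5 and COL4A6 gave 0.925 but parted on mix 3, where their levels about their own means differed by 1.79 on the log2 scale. COL8A1 and COL8A2 gave 0.773 and parted on mix 4.

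**Figure D3:**
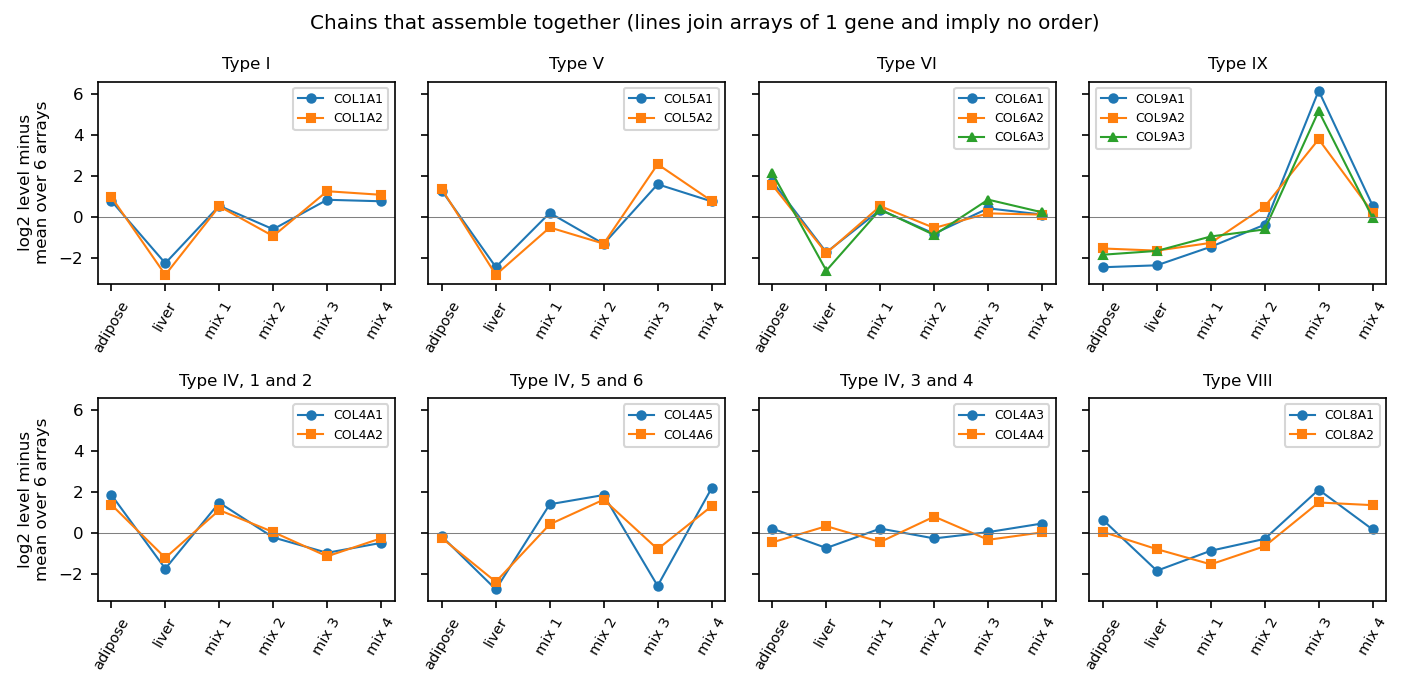
Each panel holds the chains of a collagen type and plots their log2 level on each of the 6 arrays minus the gene's own mean; lines only join the points of a gene. The chains of types I and VI lie nearly on top of each other, those of type IX share their peak on mix 3 at different heights, and COL4A3 and COL4A4 run apart with a correlation of −0.605.

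Several of these genes also lie side by side in the chicken genome. By gene order in the RefSeq table of the assembly GRCg7b, 6 pairs of collagen members are neighbours. COL4A1 with COL4A2 (0.981), COL6A1 with COL6A2 (0.986), COL4A5 with COL4A6 (0.925) and COL4A4 with COL4A3 (−0.605) are both neighbours and partner chains. COL5A2 with COL3A1 gave 0.733 and COL9A1 with COL19A1 0.380. Neighbours thus ranged from closely matched to opposed, also where they are partner chains.

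How firm a gene's value is depends on its probe sets. Of the 121 collagen probe sets 96 passed the filter, and 25 genes had at least 2 that did. In 15 of these every tested probe set was brightest on the same array, in 19 every one gave the same sign on adipose and in 23 the same sign on liver. In 10 the brightest probe set did not show the widest range over the arrays.

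COL1A2, with 8 probe sets, shows this best. Mix 3 exceeded adipose by 0.28 on the log2 scale on its brightest probe set, where both signals are near the highest on the arrays, and by 0.71, 1.91, 2.46, 2.45 and 2.14 on the fainter tested ones. The liver difference went from −3.30 on the brightest to −5.38 on the fifth and −1.74 on the faintest tested. COL3A1 on adipose exceeded the mean of the mixes by 0.60 on its brightest probe set and by 0.17 to 2.60 on the others. The size of its adipose difference thus depends on the probe set chosen. On the probe set at 0.17, adipose (431.1) lay within the mixes and mix 3 (448) was brightest. Differences of COL4A2 (1.38 to 2.11 over 6 probe sets) and COL6A1 (1.71 to 2.75 over 3) were all positive.

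COL6A2 was the contrary case. Its fainter probe set read 79.2 on adipose, 1111.5 on liver, and 1070.9, 473.8, 84.3 and 81.7 on mixes 1 to 4, which is lower on adipose (−1.52) and higher on liver (2.09), the opposite of the brighter one. COL13A1 was also uncertain: its 6 tested probe sets gave −1.82 to 0.06 on adipose, and the one used is of a kind (suffix x) whose probes may match other genes.

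**Figure D4:**
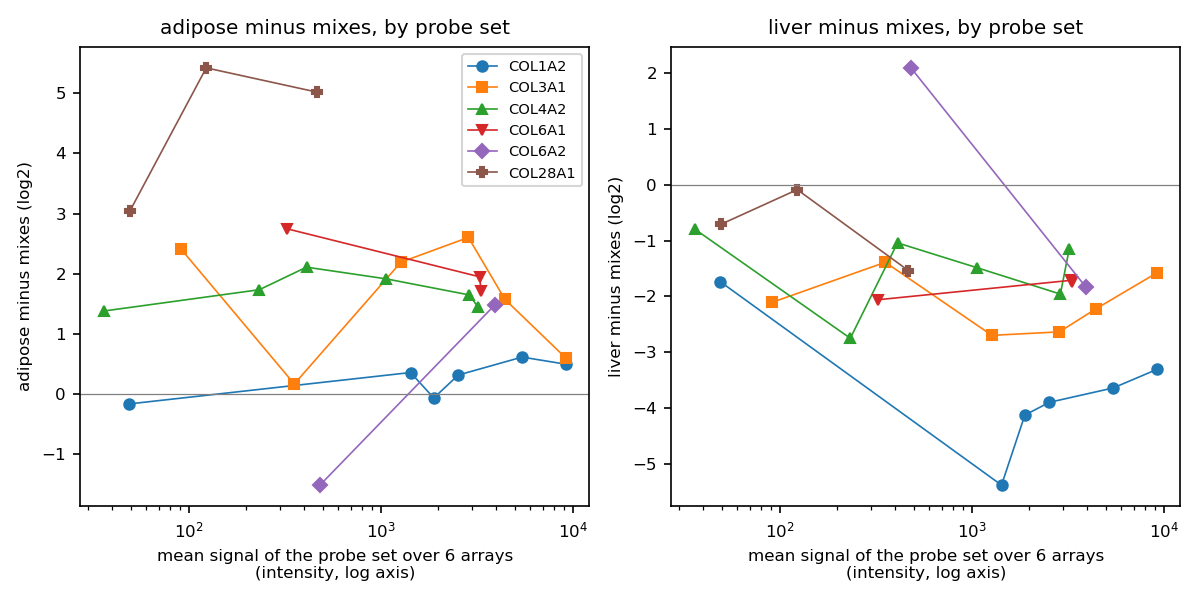
Each point is a tested probe set of COL1A2, COL3A1, COL4A2, COL6A1, COL6A2 or COL28A1, placed by its mean signal over the 6 arrays (log axis) and by its log2 difference from the mixes on adipose (left) or liver (right); lines join the probe sets of a gene. The probe sets of COL28A1 lie at 3.04 to 5.42 on adipose, and those of COL6A2 lie on opposite sides of 0 in both panels.

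The machinery that makes, crosslinks, binds and removes collagen was listed by role, and limma called 0 genes of any list in either comparison. The shares of all probe sets to read the counts against are again 26.9% above and 15.7% below all mixes on adipose, and 6.78% above and 60.5% below on liver. Of 17 enzymes and chaperones of chain synthesis and folding, 4 lay above and 1 below all mixes on adipose (median 0.19), and 1 above and 11 below on liver (median −0.96). The 23.5% above on adipose and 64.7% below on liver are near the shares of all probe sets (26.9% and 60.5%). Of them 11 were brightest on mix 3, where 14.6% of all probe sets were. SERPINH1, the collagen chaperone of the endoplasmic reticulum, had 1871.6 on adipose, 313.6 on liver, and 1910.9, 1526.4, 4088.2 and 1860.6 on mixes 1 to 4. P4HA2, a chain of prolyl hydroxylase, had 651, 65, 305.2, 257.5, 302.7 and 184.5 in that order. SERPINH1 was thus brightest on mix 3 and P4HA2 on adipose, and both were lowest on liver.

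Of 10 genes for propeptide cleavage and crosslinking, 6 lay above and 2 below all mixes on adipose (median 1.05) and 7 below on liver (median −1.91). The count above on adipose compares with 26.9% of all probe sets, and the 70.0% below on liver with 60.5%. The count above includes LOXL2, nearly level at 455.7 on adipose and 451.2 on mix 3. ADAMTS2, which cuts the amino end of procollagen, had 380.3 on adipose, 18.3 on liver, and 27.1, 8.8, 55.3 and 40.7 on mixes 1 to 4. LOX, the oxidase that starts crosslinks, had 1335.3, 28.4, 59, 56.3, 713.1 and 224.5 in that order. Both were brightest on adipose, at 3.21 (SE 0.69) and 2.97 (SE 1.36) from the mixes, with mix 3 next. ADAMTS3, the enzyme for type II procollagen in mammals, was the reverse, at 3.5 on adipose and 329.2 on mix 3.

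Of 20 fibril-binding proteins, 11 lay above and 1 below all mixes on adipose (median 0.89), and 14 below on liver (median −1.34). That is 55.0% above on adipose against 26.9% of all probe sets, and 70.0% below on liver against 60.5%. The count above includes genes nearly level with a mix. LUM had 5291.4 on adipose against 5224.8 on mix 3, and TNC had 404.8 against 401.4 on mix 3. LAMC1 had 3793.6 against 3625.9 on mix 4. FBN1, the microfibril protein fibrillin, was at 543.9 on adipose and 21.4 to 90.1 elsewhere, and OGN, a small proteoglycan, at 1848.7 on adipose and 50.9 to 360.7 elsewhere. FMOD, a proteoglycan of tendon and cartilage fibrils, was the member below the mixes, at 59.9 on adipose, 8 on liver, and 1810.5, 61.2, 4355.2 and 1034.9 on mixes 1 to 4. Of 8 collagen receptors 3 lay above and 1 below on adipose (median 1.17), and 1 above and 5 below on liver (median −1.33). With 8 genes, 37.5% above on adipose and 62.5% below on liver are not far from 26.9% and 60.5% of all probe sets. Most apart on adipose was CD36, a fatty acid carrier that also binds collagen and stands in the adipocyte list as well, at 12095 against 808 to 2346.2 elsewhere.

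Of 16 genes of collagen breakdown, 4 lay above and 2 below all mixes on adipose (median 0.56), and 2 above and 9 below on liver (median −1.03). The count above on adipose and the 56.2% below on liver are close to the shares of all probe sets (26.9% and 60.5%). Of the 16 genes 8 were brightest on mix 3, where 14.6% of all probe sets were. By at least 4-fold 0 of these stood out, the smallest margin was 0.02 on the log2 scale, and mix 4 came next in 4. MMP9, a gelatinase, had 2.8 on adipose, 15.6 on liver, and 105.4, 39, 4649.8 and 1666.9 on mixes 1 to 4. MMP13, a collagenase of cartilage and bone, had 43.3, 7.6, 49.7, 15.3, 6741.4 and 2012.9, and CTSK, the collagen-cutting protease of osteoclasts, had 2444.5, 191.7, 866.7, 477.9, 10372 and 5506.6. All 3 were brightest on mix 3 with mix 4 next, the order seen in COL10A1 and in the bone markers.

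Summed over cell types, fibroblast marker signal (10 genes) was 25982 on adipose, 18870 on mix 3, 14516 on mix 4, 8953.2 on mix 1, 7314.7 on mix 2 and 4870.3 on liver. By this sum adipose and mix 3 were highest and liver lowest, as in, among others, the signals of COL5A1, COL6A3 and LOX. COL4A1, COL4A2, COL18A1 and COL20A1 instead had mix 3 as their faintest mix. DCN alone had 10557 on mix 3, and only 3 of the 10 genes were brightest there. The median over the list's genes, each minus its own mean, was 0.356 on mix 4 and 0.325 on mix 3. The list's part in the collagen values was not tested. Skeletal muscle markers were highest on mix 4 (59985, against 150.3 to 10144) and intestine and stomach markers on mix 1 (35854, against 79.6 to 7423.3), so the mixes differed in these markers as well as in collagen.

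**Figure D5:**
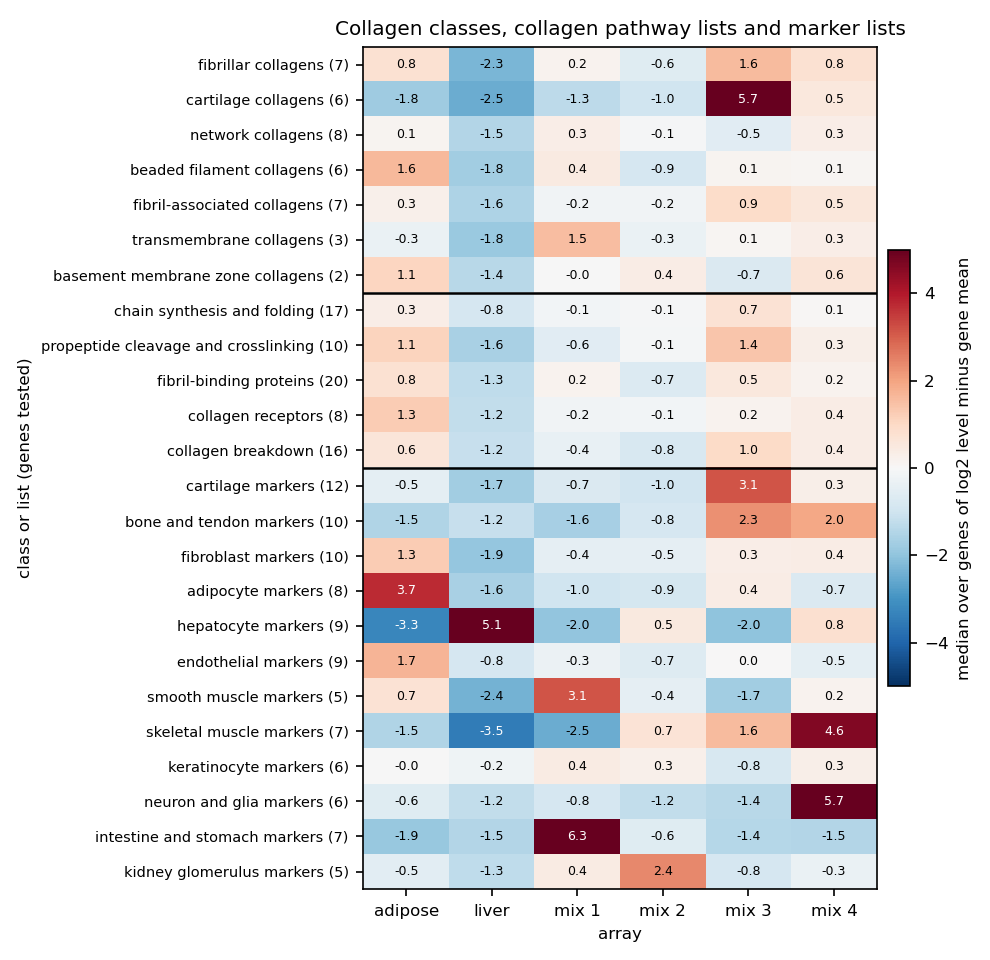
Each row is a collagen class, a pathway list or a marker list and each column an array; colour gives the median over the row's tested genes of the log2 level minus the gene's mean over the 6 arrays. The cartilage collagens (5.70) and the cartilage markers (3.14) peak on mix 3, and the beaded filament collagens (1.63) peak on adipose. Liver is below 0 in all 7 collagen classes, and also in every other row except the hepatocyte markers (5.12). The levels are not corrected for the dim liver array.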

How the data were processed

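Total RNA was labelled as biotin cRNA and hybridised to Affymetrix chicken arrays, per the labels' protocols. The deposited values are linear intensity, computed by the authors with MAS5, per the submitters' processing notes, whose version and scaling target the labels leave unstated. The sample descriptions name adipose tissue for all 6 arrays, so groups come from the titles. The columns not used number 0.

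After 96 control probe sets were left out, signals became log2(signal + 13.3). Probe sets above 44.1 on at least 1 array (25958) were fitted with limma 3.58.1 in R 4.3.3: a mean per group, eBayes with trend, Benjamini-Hochberg at 0.05, two-sided. The spread comes from the 4 mixes alone (3 residual degrees of freedom, 2.59 prior), and a lone array is assumed to vary like them. The fit was also run on simulated data in which all probe sets shared the same spread. The real probe sets do not, so that run cannot show how the fit behaves on them. Summaries used Python 3.11.15.

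Members and gene lists were chosen with earlier results of these data known. Every collagen may be named. Values on every array are given for those in a partner pair, 4-fold brightest, or 2-fold outside the mixes, and for up to 4 genes of a list by size of difference. Members' sequences were not analysed here. Other pseudocounts, floors, scalings, filters, probe sets and variance models, and leaving out each mix, were tried.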

Additional observations from a re-analysis of the deposited data

Results flagged for a closer look

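In 4 of 39 collagen genes tested, 1 of the 4 mixes stood apart from the other mixes: its gap to the nearest of them, divided by their whole range on the log2 scale, passed Dixon's critical value. Chance flags about 1 in 20 genes, and all genes share the same 4 arrays. The share was 10.3% of the collagens and 7.02% of all 25958 probe sets tested, so the number of genes picked is near the background.

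COL9A3, a chain of the cartilage collagen IX, was high on mix 3, at 5313.7 against 63.4 to 130.9 on the other mixes (gap over range 0.851). COL16A1, a fibril-associated collagen, was also high on mix 3, at 689.6 against 68.8 to 99.2 (0.853), but its other tested probe set had 69.7 on mix 3 and 80.8 on mix 2. COL4A5, a chain of specialised basement membranes, was low on mix 3, at 3.6 against 253.1 to 443.8 (0.836), but the faintest of its 3 tested probe sets was brightest on mix 3, at 86.8 against 51.7 to 65.9. COL17A1, the hemidesmosome collagen, was high on mix 1, at 522.3 against 61.5 to 86.5 (0.854). In 3 of the 4 genes the mix that stood apart was mix 3.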

How the results depend on the processing

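Of the summary values recomputed under alternatives, 147 stayed near the value reported and 10 moved. Those that moved are all counts of collagens. The medians by class are not among them, yet some shifted widely: without mix 3 the cartilage median on adipose went from −2.82 to −1.45. The count of collagens at least 4-fold higher on adipose than on liver was 13 with the pooled median added, and 13 with the mean of each gene's probe sets, in place of 20. With signals floored at the pooled median limma called 1 collagen on adipose (COL28A1) in place of 0, and 5 in place of 10 lay below all mixes on adipose; faint values are tied at the floor. Collagens above all mixes on liver numbered 2 under quantile scaling, 2 under trimmed-mean scaling and 0 to 1 when each mix was left out in turn (1 without mix 1, mix 2 or mix 3), in place of 0. Those brightest on mix 3 by at least 4-fold numbered 10 under quantile scaling in place of 6. The cause of these shifts was not tested where none is named.

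For single genes, only the 49 differences larger than 1 in either direction on the log2 scale were counted, giving 588 recomputed values. Of these, 585 kept their direction and side of the threshold. Part of that count was fixed in advance. Leaving out the filter or the eBayes trend changes only the p, so direction could not change there. No collagen passed the threshold as reported, so its side could change only by a new call. Smaller differences were left out of the 588, and those of COL4A3 and COL21A1 on adipose changed sign under trimmed-mean and spike-in scaling. COL6A2 reversed with the mean of its probe sets, to −0.016 on adipose (limma adjusted p = 0.998) and 0.13 on liver (limma adjusted p = 0.930); its probe sets have opposite signs. The median liver shift of all probe sets was −0.75 as deposited, −0.09 under quantile, −0.26 under trimmed-mean and −0.61 under spike-in scaling.

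No paired analysis was possible because adipose and liver have 1 array each and the labels do not link any array to a mix by bird. No detection calls were used, so signal over background limits faint genes: a signal near 13 differs little from 0 on this scale.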

Other observations

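The fainter probe set of COL6A2 had its own order over the arrays, brightest on liver (1111.5) and mix 1 (1070.9) and lowest on adipose (79.2). The gene on the other side of COL6A2 in the RefSeq gene order of GRCg7b is FTCD, an enzyme of histidine breakdown, chosen for a look after its values were seen. FTCD had 13.6 on adipose, 560.2 on liver, and 44.9, 99.1, 14 and 20.9 on mixes 1 to 4. It was brightest on liver too, at 3.53 above the mixes (SE 0.83, limma adjusted p = 0.196), but it was faint on mix 1, where the COL6A2 probe set was nearly as bright as on liver. Whether that probe set reads COL6A2 was not tested.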
